A study of Mus musculus with 2 samples.

Results

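Gene desert peaks are stretches of open chromatin that lie far from every protein-coding gene. They were taken from the deposited list of 87174 peaks (mouse build mm10) as the peaks on chromosomes 1 to 19 whose midpoint was more than 200 kb from any protein-coding gene span in the RefSeq annotation. Of 85553 autosomal peaks, 5936 met this rule, which is 6.94% (exact Clopper-Pearson 95% interval 6.77 to 7.11%). They fell into 730 deserts, a desert being a stretch of chromosome that is everywhere more than 200 kb from a protein-coding span, and 593 of these held at least 1 peak. The coding genes on either side of a desert are called its border genes.

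The peaks come from single-nucleus ATAC-seq, in which a transposase cuts accessible DNA in isolated nuclei and the cut ends are sequenced with a barcode for each nucleus. The tissue was the striatum, the part of the ventral forebrain that holds the movement-controlling projection neurons, taken from mouse embryos without a mutation (wild type) at stage E14.5. There was 1 group, of 2 libraries on a C57BL/6J and CD1 strain background, and the labels do not say whether the libraries came from separate embryos. A single list of peak positions covered both libraries, so no value below has a replicate error, no test between samples was possible and the read depth behind a peak is unknown. Intervals cover the counting of peaks only, and neighbouring peaks share their surroundings, so they are not independent observations.

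Part of the mammalian genome that holds no coding gene lies in very long intervals. Such intervals can hold enhancers, short elements bound by transcription factors that raise the activity of a gene on the same chromosome, sometimes from very far away. They also hold genes for long non-coding RNAs (lncRNAs) and microRNAs, the latter being short RNAs that repress messenger RNAs through a seed, bases 2 to 8 of the mature strand. Which gene a desert peak acts on cannot be read from its position, and border genes are given here as neighbours only.

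The annotation placed 51 microRNA genes in the deserts, and 20 of these had a gene desert peak within 5 kb. The same share was not counted for microRNA genes elsewhere, so whether this one is unusual is unknown. A selection of the desert microRNA sequences is shown first, because they are the named products of otherwise unnamed intervals. It was made after the values were seen. The sequences are from RefSeq (build GRCm38.p6), 5′ to 3′ with the seed in capitals. A pair of deserts, on chromosomes 9 and 16, each hold a miR-125b gene, a gene of the miR-99/100 family and a let-7 gene in the same order. These microRNA families are known for their part in the timing of differentiation. For Mirlet7a-2 only the 3p strand was among the sequences read here, and its seed is not that of let-7c-5p.
miR-125b-5p (Mir125b-1 and Mir125b-2): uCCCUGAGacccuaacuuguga
miR-100-5p (Mir100, chromosome 9): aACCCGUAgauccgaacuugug
miR-99a-5p (Mir99a, chromosome 16): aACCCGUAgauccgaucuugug
let-7c-5p (Mirlet7c-1, chromosome 16): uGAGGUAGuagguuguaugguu
let-7a-2-3p (Mirlet7a-2, chromosome 9): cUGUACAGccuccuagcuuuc

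The miR-100 and miR-99a strands share the seed ACCCGUA, and both miR-125b genes give the same strand with the seed CCCUGAG. A further desert, on chromosome 7 between Gm51483 and Ndn (a gene of the Prader-Willi imprinted region), held a run of miR-344 genes. They are shown because 6 of the 9 microRNA genes that lay under a gene desert peak belonged to this family. Those 9 were 17.6% of the 51 microRNA genes in deserts. How many of the 51 belong to the miR-344 family was not counted, so whether 6 of 9 is unusual is unknown.
miR-344-3p (Mir344 and Mir344-2): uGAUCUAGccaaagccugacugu
miR-344c-3p (Mir344c): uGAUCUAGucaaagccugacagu
miR-344-5p (Mir344 and Mir344-2): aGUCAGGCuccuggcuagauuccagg
miR-344c-5p (Mir344c): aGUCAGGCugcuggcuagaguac
miR-344g-5p (Mir344g): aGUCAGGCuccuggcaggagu
miR-344f-5p (Mir344f): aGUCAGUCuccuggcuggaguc
miR-344i (Mir344i): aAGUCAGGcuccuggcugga

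The 3p strands of Mir344, Mir344-2 and Mir344c share the seed GAUCUAG. The 5p strands of those genes and of Mir344g share GUCAGGC. The other microRNAs described below are miR-802, under a peak between Runx1 and Setd4, and miR-135a, in the desert that also holds the neural lncRNA Rmst.
miR-802-5p (Mir802): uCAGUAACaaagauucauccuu
miR-135a-5p (Mir135a-2): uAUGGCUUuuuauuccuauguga

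The second set of sequences is the promoter windows of lncRNA genes that lay under gene desert peaks, each running from 250 bases before to 50 bases after the annotated start on the gene's own strand (RefSeq, GRCm38.p6). CG dinucleotides are in capitals, since clusters of CG mark the promoters of many coding genes and the windows differed in them. Mir100hg, the host transcript of the chromosome 9 microRNAs, had 15 CG in chr9:41376276-41376575.
Mir100hg: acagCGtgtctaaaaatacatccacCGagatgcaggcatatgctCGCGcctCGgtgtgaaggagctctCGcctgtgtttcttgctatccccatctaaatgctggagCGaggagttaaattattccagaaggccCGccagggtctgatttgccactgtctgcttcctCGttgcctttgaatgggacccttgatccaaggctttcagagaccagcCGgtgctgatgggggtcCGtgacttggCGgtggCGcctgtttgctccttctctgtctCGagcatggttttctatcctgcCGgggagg
Mir99ahg, an lncRNA gene in the chromosome 16 desert whose annotated span ends before the microRNA genes there, had 8 CG in chr16:77329078-77329377.
Mir99ahg: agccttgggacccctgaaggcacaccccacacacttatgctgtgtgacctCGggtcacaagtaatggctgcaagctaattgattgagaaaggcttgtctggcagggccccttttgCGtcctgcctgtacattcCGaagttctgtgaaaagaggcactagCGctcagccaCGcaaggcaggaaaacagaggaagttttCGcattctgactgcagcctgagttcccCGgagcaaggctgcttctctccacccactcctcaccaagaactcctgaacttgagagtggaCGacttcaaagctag
Gm36794, in the desert between Mn1 and Cryba4, had 18 CG in chr5:111944408-111944707, on the minus strand.
Gm36794: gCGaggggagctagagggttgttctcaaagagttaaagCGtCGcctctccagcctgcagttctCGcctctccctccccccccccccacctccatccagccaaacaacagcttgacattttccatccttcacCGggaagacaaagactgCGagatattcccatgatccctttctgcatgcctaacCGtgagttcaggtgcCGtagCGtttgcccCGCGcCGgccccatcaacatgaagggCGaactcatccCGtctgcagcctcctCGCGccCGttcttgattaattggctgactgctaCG
Gm28175, in the desert beside Pou3f3 and under the second widest gene desert peak, had 5 CG in chr1:42257602-42257901.
Gm28175: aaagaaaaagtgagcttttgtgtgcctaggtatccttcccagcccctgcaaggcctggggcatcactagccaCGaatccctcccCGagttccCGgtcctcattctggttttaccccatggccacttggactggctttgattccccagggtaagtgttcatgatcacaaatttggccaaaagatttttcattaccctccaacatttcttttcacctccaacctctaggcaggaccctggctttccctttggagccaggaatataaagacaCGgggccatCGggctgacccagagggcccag
Gm38512, in the desert between Sox2 and Atp11b, is shown with motif matches in capitals in place of CG, in chr3:35405901-35406200 on the minus strand. It held 1 match each to CAGCTG (an E-box, bound by basic helix-loop-helix factors), ACAATG (SOX factors) and TTGGCA (part of the site of NFI factors), on either strand.
Gm38512: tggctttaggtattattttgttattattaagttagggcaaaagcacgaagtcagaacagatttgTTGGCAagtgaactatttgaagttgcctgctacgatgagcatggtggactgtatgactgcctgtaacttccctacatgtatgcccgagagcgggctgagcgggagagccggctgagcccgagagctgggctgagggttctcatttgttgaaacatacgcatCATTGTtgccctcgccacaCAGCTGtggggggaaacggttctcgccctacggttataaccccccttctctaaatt

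The deserts were thinly but not evenly covered. They made up 458 Mb, or 19.1% of the autosomal span, and held 12.96 peaks per Mb against 41.0 per Mb in the rest of the autosomes, a ratio of 0.316. Density fell with each step away from coding genes. It was 49.8 peaks per Mb inside coding genes, 36.5 within 50 kb of one, 27.3 at 50 to 100 kb and 22.6 at 100 to 200 kb. Within the deserts it was 19.9 per Mb at 200 to 300 kb, 14.2 at 300 to 500 kb, 9.29 at 500 to 1000 kb and 5.45 beyond 1000 kb. The 200 kb limit therefore cut through a gradual decline and did not mark a break in it.

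Gene desert peaks were also narrower. The median was 466.5 bp, with quartiles of 309 and 737 bp, against 578 bp for the other autosomal peaks and 527 bp for peaks that lay between coding genes but within 200 kb of one. Widths above 2000 bp were found in 134 gene desert peaks (2.26%), 9.81% of the other autosomal peaks and 6.05% of the near intergenic ones. Peaks narrower than 20 bp, which are shorter than a usual regulatory element, made up 1.74% of gene desert peaks and 1.60% of the others. Outside the deserts the median width was 498 bp at 50 to 100 kb and 500 bp at 100 to 200 kb. Within the deserts the median width went from 499 bp at 200 to 300 kb to 409 bp beyond 1000 kb. Width therefore showed no step at the 200 kb limit either.

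**Figure D1:**
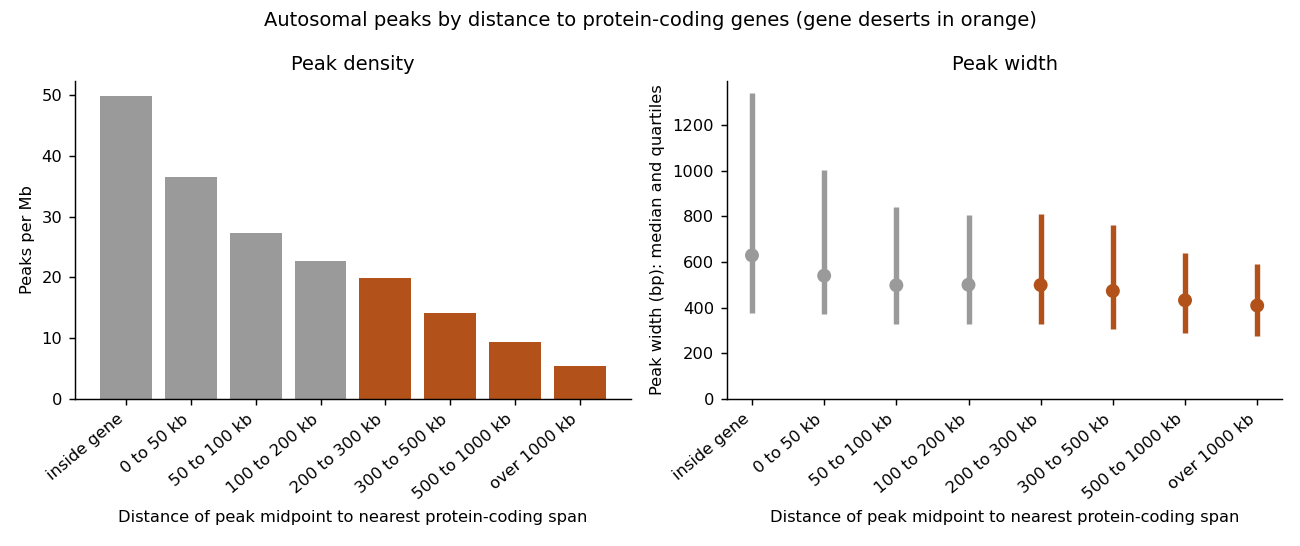
Left, autosomal peaks per Mb by distance of the peak midpoint from the nearest protein-coding span; right, median width in bp (points) with quartiles (vertical lines). Orange marks the 4 distance classes that make up the gene deserts, where density fell from 19.9 to 5.45 peaks per Mb and median width from 499 to 409 bp.

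The median gene desert peak lay 339 kb from the nearest coding gene, 27.3% lay farther than 500 kb and 358 (6.03%) farther than 1000 kb. The most remote, of 60 bp at chr14:90725481-90725541, was 2254 kb from Pcdh20, a protocadherin adhesion gene. The next were a peak of 371 bp 2207 kb from Pcdh17, a pair of 873 and 288 bp at 2202 and 2198 kb from the RNA-binding protein gene Celf4, and a peak of 572 bp also 2198 kb from Pcdh20. All 5 were narrower than 1000 bp. At the other extreme, the members nearest to the limit were 200.02 kb from Fgfr2, 200.04 kb from Nfia and 200.06 kb from Tle3. The peaks that just missed it were 199.92 kb from Ttll7, 199.91 kb from Clnk and 199.86 kb from Dlgap1.

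Gene desert peaks were more scattered than other intergenic peaks. The nearest other peak was a median of 12.7 kb away, compared with 5.12 kb for intergenic peaks within 200 kb of a gene, and 18.1% had no other peak within 50 kb, compared with 3.82%. Even so, 29.0% had a neighbour within 5 kb. Counted in runs in which each peak lay within 10 kb of the next, the run with most peaks held 14 over 54.7 kb, at chr5:111890794-111945504 between Mn1 and Cryba4, and the same desert held further runs of 12 peaks over 49.6 kb and 11 over 57.3 kb. Runs of 11 peaks were also found in the deserts between Matn1 and Ptpru (34.7 kb) and between Sox2 and Atp11b (40.3 kb).

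A few deserts held much of the total. The median desert was 345 kb long with 5 peaks, 137 deserts had none and 65 had more than 20. The 12 richest held 602 gene desert peaks (10.1%), and the 50 richest held 1809 (30.5%) in 16.3% of the desert length. Their number of peaks did not follow length alone, as the next paragraphs show.

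The desert with most peaks, 56, lay on chromosome 11 between Tenm2, a teneurin adhesion receptor of developing axons, and Mat2b, a subunit of the enzyme that makes S-adenosylmethionine. It was 3042 kb long, with 18.4 peaks per Mb. Its widest peak was 1047 bp, at chr11:40362182-40363229, so the desert led by number and not by wide peaks. The desert between Celf4 and Pik3c3 (a class III phosphatidylinositol 3-kinase) on chromosome 18 was of the same kind, with 54 peaks over 4111 kb, 13.1 per Mb and a widest peak of 1502 bp. So was that between Slc10a2, a bile acid transporter, and Efnb2, an ephrin ligand of axon guidance, with 43 peaks over 3112 kb on chromosome 8.

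Short and dense deserts formed a contrasting kind. Between Mn1, a transcriptional coactivator, and Cryba4, a lens crystallin, 55 peaks lay within 389 kb, a density of 141 per Mb that exceeded the 49.8 per Mb found inside coding genes. The median width there was 747 bp. The widest peaks were 3043 bp at chr5:111842288-111845331, 2861 bp and 2725 bp. A peak lay at an end of Mn1 (within 1 kb) but at neither end of Cryba4. The desert between Matn1, a cartilage matrix protein, and Ptpru, a receptor tyrosine phosphatase, held 50 peaks in 413 kb, 121 per Mb, with a median width of 497.5 bp. Here the ends of Matn1 had no peak and those of Ptpru did.

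Transcription factor genes of the developing forebrain bordered 4 of the 12. The desert from Zfp608, a zinc finger gene, to Gramd3 on chromosome 18 held 53 peaks in 995 kb, the 3 widest being 4357, 3634 and 3496 bp. The desert on the opposite side of Zfp608, toward the casein kinase gene Csnk1g3, held 37 more in 532 kb. Bcl11a, a zinc finger factor of projection neurons, bordered a desert of 1814 kb with 52 peaks, the widest being 2328 bp inside the lncRNA 5730522E02Rik. Its other border, Fancl, encodes a ubiquitin ligase of the Fanconi anaemia pathway.

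The POU genes Pou3f3 and Pou3f2 (Brn1 and Brn2, factors of neural progenitors and young neurons) bordered the other pair. Between Tmem182 and Pou3f3, 49 peaks lay over 1439 kb with a median width of 680 bp. They included the peak of 6607 bp at chr1:42256848-42263455, 436 kb from Pou3f3, which covered the Gm28175 promoter printed above. Between Pou3f2 and Mms22l, a replication fork repair gene, 43 peaks lay over 1608 kb with a median width of 478 bp. The widest, of 2907 bp, was 347 kb from Pou3f2 and overlapped the promoter of Gm42262.

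The remaining 3 of the 12 had borders of other kinds. Auts2, a large neurodevelopmental gene, and Castor2 enclosed 54 peaks in 1157 kb, of which 34 lay nearer to Castor2 and 20 nearer to Auts2. Tmpo (a nuclear lamina protein) and Nedd1 (a centrosome protein) enclosed 48 peaks in 1103 kb, 6 of them inside Rmst, a lncRNA of neurogenesis. Slc4a3, an anion exchanger, and the guidance receptor gene Epha4 enclosed 45 in 1408 kb, with a widest peak of 2533 bp.

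**Figure D2:**
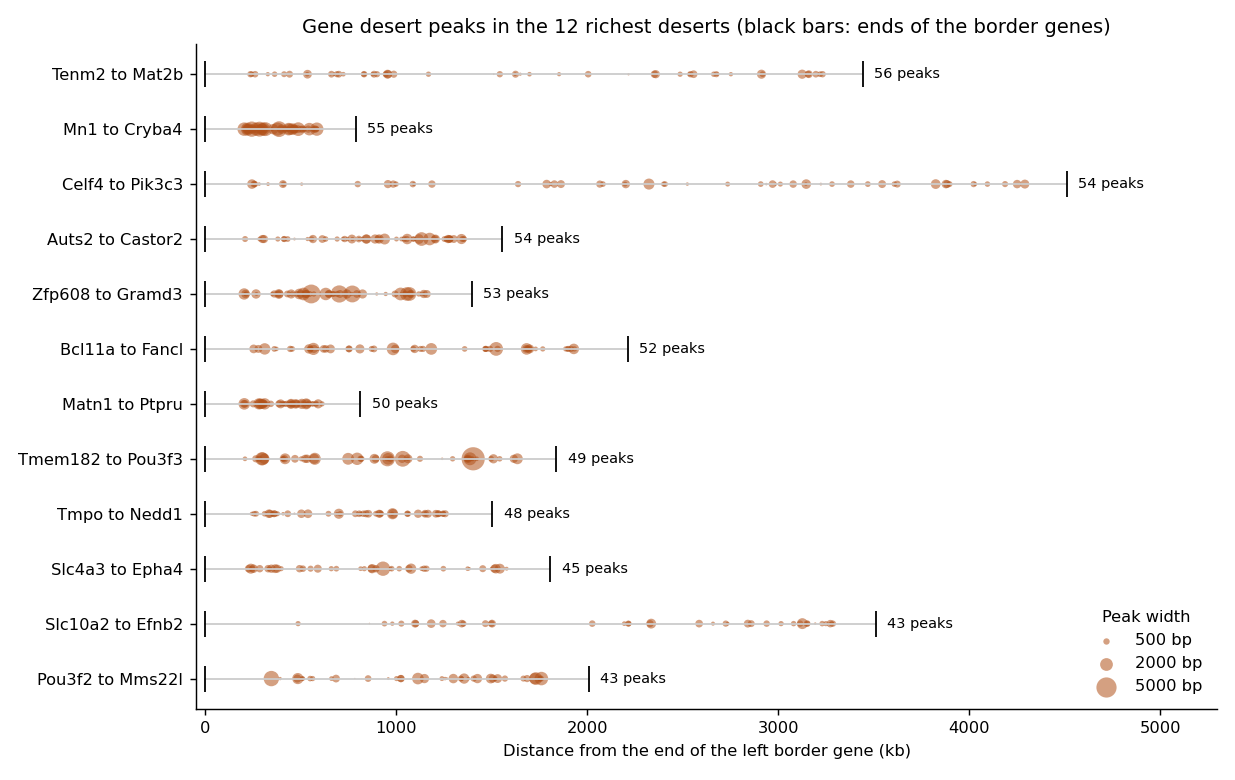
The 12 deserts with most gene desert peaks, each drawn from the end of its left border gene (0) to the start of its right one in kb; every circle is a peak and its area follows peak width. The 55 peaks between Mn1 and Cryba4 and the 50 between Matn1 and Ptpru are packed into deserts of 389 and 413 kb, while the 56 between Tenm2 and Mat2b are spread over 3042 kb.

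Ranked by density among deserts of at least 500 kb and 5 peaks, the first was between the ribosomal protein gene Rps24 and Zmiz1, a transcriptional co-regulator, with 42 peaks at 74.9 per Mb. It was followed by Csnk1g3 to Zfp608 (69.5 per Mb) and by Cd83 to Jarid2 (66.3 per Mb), the latter gene encoding a partner of Polycomb repressive complexes. Next came Cdh26 to 4930591A17Rik (54.97 per Mb) and Sox2 to Atp11b (54.2 per Mb). Sox2 is a factor of neural stem cells, and its desert held 38 peaks in 702 kb.

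Length and number parted most clearly in the longest deserts. The longest of all, 4142 kb between the protocadherin genes Pcdh20 and Pcdh9, held 17 peaks, or 4.10 per Mb, none wider than 767 bp. The desert from Cntnap5b to Cdh20 held 9 in 3878 kb. Long deserts without a peak included 2101 kb between Adam6a and Zfp386, 1116 kb between Adcyap1 and Mettl4, 805 kb between Gm32936 and Lrfn5, and 656 kb between Ptger4 and Dab2. The first of these held 152 antibody gene segments; these segments are annotated as a class of their own, and are rearranged and used in lymphocytes. The other 3 held none.

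**Figure D3:**
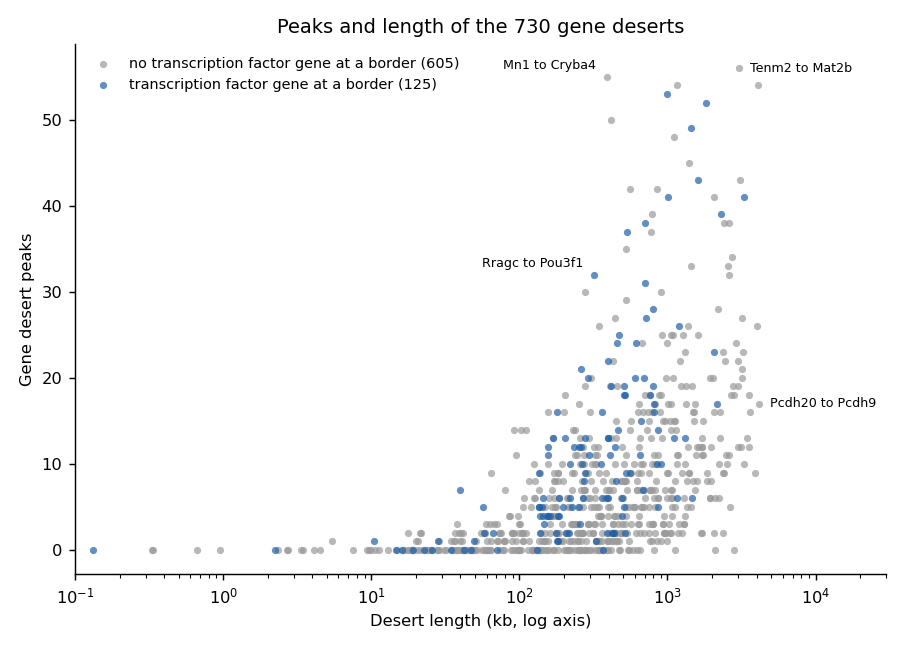
Gene desert peaks (vertical axis) against desert length in kb (horizontal log axis) for all 730 deserts; blue marks the 125 with a transcription factor gene at a border, grey the other 605. The desert between Mn1 and Cryba4 reaches 55 peaks at 389 kb, while that between Pcdh20 and Pcdh9 has 17 at 4142 kb.

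Border genes were counted in 5 classes set by gene symbol. The symbol lists are incomplete, and the transcription factors Tox3, Hnf4g and Creb1, for example, were not counted in their class. Developmental transcription factors were 504 of 20558 autosomal coding genes (2.45%), 112 of 1280 desert border genes (8.75%) and 14 of 98 border genes of the 50 richest deserts (14.3%). These 14 were Bcl11a, Irx1, Nr2f1, Nr2f2, Nr5a2, Pou3f1, Pou3f2, Pou3f3, Prdm2, Sall1, Sall3, Sox2, Zeb2 and Zfp608. Adhesion and axon guidance genes were 1.18% of coding genes, 6.41% of desert borders and 17 of 98 (17.3%) for the 50 richest, among them Cdh8, Efna5, Efnb2, Epha4, Epha7, Plxna2, Tenm2 and Tenm4. Ion channel and neurotransmitter receptor genes were 1.34% of coding genes and 3.44% of desert borders, and secreted signals were 0.530% and 1.48%. Neither class had a gene among the 98 (upper limit of the exact interval 3.69%). Chemosensory and barrier families were 9.44% of coding genes, 1.17% of desert borders and also 0 of 98.

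Ranking by number favours long deserts, so the same count was made by density in deserts of at least 500 kb, a comparison added after the first results were seen. Transcription factor genes were 20 of 99 borders of the 50 densest and 0 of 94 of the 50 sparsest (exact interval for the latter 0 to 3.85%). The 0 depends on the cut at 50. Beyond it, the sparsest deserts with such a border were Iqcm to Nr3c2 (3.89 per Mb) and Csmd3 to Trps1 (4.10 per Mb). Adhesion and guidance genes were 9 of 99 and 14 of 94, so they bordered deserts at either end of the ranking. Ion channel and receptor genes were 0 of 99 and 6 of 94, the 6 being Gabrg1, Grin3a, Grm3, Htr7, Kcnd2 and Kcnv1, and secreted signals were 0 of 99 and 2 of 94. Borders of the 137 deserts without a peak still included 13 transcription factor genes of 262 (4.96%), among them Hes1, Satb1 and Tfap2a. Their 13 deserts were mostly short, with a median of 25.8 kb and a longest of 369 kb (Satb1 to Kcnh8).

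The 125 deserts with a transcription factor gene at a border held 1454 gene desert peaks (24.5%), at 24.4 per Mb, compared with 11.2 per Mb in the other 605. Their median lengths were 327 and 346 kb, and in deserts of at least 500 kb the densities were 21.4 and 9.26 per Mb. Because density falls with distance from coding genes, the deserts were also compared within distance classes, which was likewise added later. At 200 to 300 kb the density was 30.4 per Mb with a transcription factor border, 14.499 with an adhesion or guidance border and 18.4 with neither. At 300 to 500 kb the values were 24.7, 11.3 and 12.6 per Mb, and at 500 to 1000 kb 17.96, 8.48 and 8.20. Beyond 1000 kb, where transcription factor deserts contributed only 43 peaks, they were 11.9, 5.45 and 4.33 per Mb. Transcription factor deserts had the highest value in each class, and adhesion or guidance deserts were lower than deserts with neither border up to 500 kb and slightly higher beyond.

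**Figure D4:**
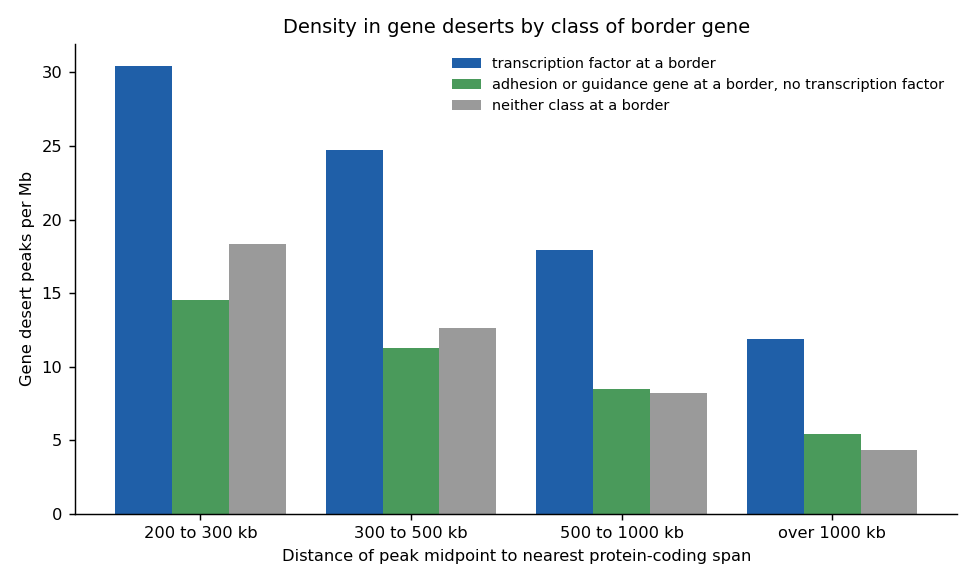
Gene desert peaks per Mb (bars, from 0) in 4 classes of distance from the nearest protein-coding span, for 125 deserts with a transcription factor gene at a border, 106 with an adhesion or guidance gene and no transcription factor, and 499 with neither. At 200 to 300 kb the bars stand at 30.4, 14.499 and 18.4 per Mb.

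In transcription factor deserts the median peak width was 513.5 bp, against 456 bp in the other deserts, and 3.65% against 1.81% were wider than 2000 bp. They were not gathered on the side of the factor. The 117 deserts with exactly 1 border gene in the transcription factor class held 1403 peaks. Of these, 703 (50.1%, exact interval 47.5 to 52.8%) lay nearer to that gene than to the other border. The other border can still be a transcription factor gene that the symbol list missed. The desert from Meis2, a homeobox factor of striatal neurons and their progenitors, to Tmco5 gave 11 peaks, the widest being 3561 bp at 256 kb from Meis2.

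Whether the border genes themselves carried accessible chromatin was read from peaks within 1 kb of either gene end. Such a peak was present at 69% of all autosomal coding genes, at 76.9% of desert border genes, at 81 of 98 (82.7%) for the 50 richest deserts and at 69.1% for deserts without a peak. The border genes are themselves among all coding genes. As a check of the tissue, a peak at a gene end was present for all 15 listed striatal and ganglionic eminence genes. It was also present for 4 of 4 cortical genes, so the check cannot tell striatum from cortex. The other lists were short: liver had 1 of 3, muscle 1 of 2, endothelium 1 of 2 and erythroid cells and microglia 0 of 2 each.

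Single chromosomes differed. Gene desert peaks were 13.5% of the peaks of chromosome 18, where deserts covered 24.5% of the span. They were 3.16% of those of chromosome 17, where deserts covered 15.5%. The deserts beside Zfp608 held 53 and 37 of the 403 gene desert peaks of chromosome 18. Per Mb of desert, chromosome 13 had the highest density at 20.2 and chromosome 6 the lowest at 7.61. At the start of chromosome 9, before Alkbh8, 7 peaks of 51 to 1140 bp lay within 50 kb of Mir101c. They were 7 of the 8 gene desert peaks not enclosed by coding genes on both sides. How reads mapped at this chromosome start was not tested, so these peaks are uncertain.

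Long non-coding RNA genes overlapped 1260 gene desert peaks (21.2%), and their spans covered 9.41% of the desert length. The same share was not counted for other peaks, and distance from coding genes was not matched. In all, 571 lncRNA genes were overlapped. Those with most gene desert peaks were Gm32647 between Gm15501 and Tenm4 (24 peaks in a span of 1284 kb), Mir100hg (22 in 239 kb), 5730522E02Rik between Bcl11a and Fancl (20 in 594 kb), 2610307P16Rik between Prl5a1 and Sox4 (18 in 425 kb) and Gm30382 between the latrophilin-family genes Adgrl2 and Adgrl4 (17 in 264 kb). A930011G23Rik also had 17, in 432 kb. Of these, Mir100hg and Gm30382 had a peak over an annotated promoter.

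Few gene desert peaks were lncRNA promoters. A promoter window was touched by 119 (2.00%), and these were wider, with a median of 818 bp against 463 bp for the rest. Seen from the genes, 139 of 1023 lncRNA promoter windows in deserts (13.6%) were under a peak. For lncRNA windows outside coding spans but within 200 kb of one, the share was 25.6%. Among lncRNA windows on all autosomes, which include those inside coding spans, it was 27.8%. Protein-coding promoters were at 65.7%. Desert lncRNA windows under a peak had a median GC content of 47.7% and 4 CG dinucleotides, against 43.3% and 2 for those without a peak. Coding promoters under a peak had a median of 62% GC and 21 CG. At least 10 CG were present in 15.1% of desert lncRNA windows under a peak. The share was 50.3% for lncRNA windows under a peak that lay outside coding spans but within 200 kb of one. For coding promoters under a peak it was 85.1%. The Mir100hg, Gm36794 and Gm38512 windows printed above, with 15, 18 and 12, were thus among the minority of desert windows.

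Short motifs were counted in the same windows on both strands as a description, overlapping matches to different motifs being counted for each. The 139 windows under a peak belong to 120 genes, and windows of 1 gene that start a few bases apart count the same match again. CAGCTG was present in 23.7% of desert lncRNA windows under a peak (33 of 139), 14.3% of those without and 16.3% of all 31396 autosomal promoter windows. Counted once per gene, it was present for 30 of 120 genes with a window under a peak, 15.7% of 771 with a window without one and 18.4% of all 25748. TGACAG (MEIS factors) was present in 30.2%, 21.8% and 19.05%, CAGATG (an E-box of proneural factors) in 26.6%, 21.9% and 17.2%, and TAATTA (DLX-type homeobox) in 12.9%, 9.73% and 5.27%. ACAATG was present in 23.0%, 23.6% and 12.2%, and TTGGCA in 18.7%, 18.6% and 14.1%, so the shares with and without a peak were close for these. The octamer ATGCAAAT of POU factors was found in 7 windows under a peak (5.04%), 2.15% of those without and 1.75% of all. The full palindromic NFI site was found in 1 window under a peak and in only 12 of all 31396 windows. The CTCF core motif was found in none of the 1023 desert windows and in only 4 of all 31396.

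The widest gene desert peak of all, 11144 bp at chr9:41577715-41588859, covered Mir125b-1 within Mir100hg, in the desert between Ubash3b and Gm40514. That desert held 26 peaks in 344 kb (75.5 per Mb) and also the fourth widest, of 4923 bp, over the Mir100hg promoter. Mir125b-1 had 10 gene desert peaks within 50 kb, the most of the 20 microRNA genes. Mir100 and Mirlet7a-2, in the same transcript, had 6 each, the nearest to Mir100 being a peak of 220 bp at a gap of 204 bp.

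The matching interval on chromosome 16, between Usp25 and Cxadr, held 39 peaks in 784 kb. Mir125b-2 lay under a peak of 473 bp at chr16:77646090-77646563 and had 9 peaks within 50 kb, 4 of them within 5 kb. Mir99a and Mirlet7c-1 had 8 each. The same mature miR-125b thus sat under the widest peak in one desert and under a peak near the median width in the other, while peaks within 50 kb numbered 10 and 9. The widest peak of the chromosome 16 desert was 2847 bp.

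In the chromosome 7 desert toward Ndn, 8 gene desert peaks lay over 835 kb and 6 of them covered a miR-344 gene. These 6 had widths of 747 bp at Mir344c, 689 bp at Mir344, 917 bp at Mir344-2, 477 bp at Mir344g, 868 bp at Mir344f and 562 bp at Mir344i. The genes are closely similar copies, as the strands printed above show, and how the authors' alignment divided reads among such copies is not stated in the sources read here, so the individual peaks are uncertain. Elsewhere Mir802 lay under a peak of 975 bp, and Mir135a-2 had 6 peaks within 50 kb with the nearest at a gap of 3253 bp. Mir101c had 7, all in the cluster at the start of chromosome 9 whose mapping was not tested, and Mir6378 beside Sox2 had 6.

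**Figure D5:**
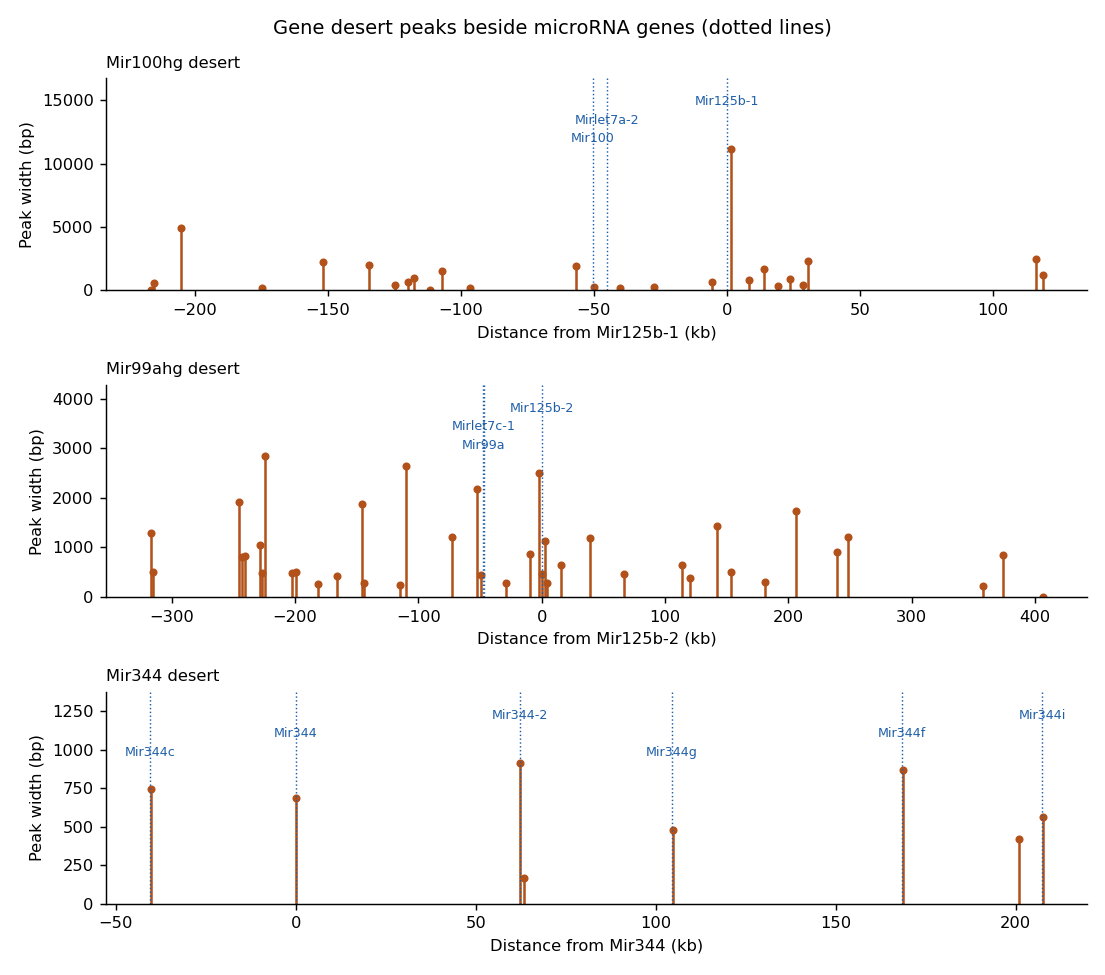
Width in bp of each gene desert peak (vertical line with point) by distance in kb from Mir125b-1 (top), Mir125b-2 (middle) and Mir344 (bottom); dotted lines mark microRNA genes and the 3 width axes differ. The peak at Mir125b-1 is 11144 bp wide and that at Mir125b-2 is 473 bp, and 6 of the 8 peaks in the lowest panel stand at a miR-344 gene.

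After the Mir125b-1 and Gm28175 peaks, the third widest was 5000 bp at chr13:28415508-28420508, between the prolactin-family gene Prl5a1 and Sox4, a factor of newborn neurons, 266 kb from Prl5a1 and 531 kb from Sox4. The fifth, of 4600 bp at chr4:71481341-71485941, lay between Megf9 and Gm11232 in a desert with only 5 peaks over 821 kb. It overlapped no lncRNA gene.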

How the data were processed

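The authors deposited 1 list of peak positions (chromosome, start and end, with no score or other value) for both libraries. Per the submitters' processing notes, Cell Ranger ATAC 1.2.0, Signac and the build mm10 were used; the peak caller's settings and whether the start is counted from 0 or 1 are not given in the sources used here, so positions stand as deposited and may be off by 1. The depth per sample is unknown.

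Distances from peak midpoints to RefSeq protein-coding spans were computed in Python 3.11.15 with pandas 2.3.3, numpy 2.4.6 and scipy 1.17.1, and the distance and desert steps were tested on simulated data. Of 49997 gene entries 49595 were kept, and 402 were left out, mostly short runs of entries (at most 50) whose positions restart, taken to be scaffolds. The RefSeq table is of GRCm38.p6, whose chromosomes carry mm10 coordinates. Overlaps needed 1 bp. No genome was used here, so sequence was read only from RefSeq promoter windows and microRNAs. No test was run, since there is 1 peak list and 1 group.

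The 12 richest deserts, the 5 densest of at least 500 kb with 5 peaks, the 5 longest empty (1 of which is not reported here), the 5 widest and 5 most remote peaks, 3 on either side of the limit, up to 10 microRNA genes within 5 kb and the 5 lncRNA genes with most peaks are named by rule; others were chosen after their values were seen (A930011G23Rik, Meis2, the miR-344 genes, Mir802, the longest deserts, the printed microRNAs and promoters). Members and lists were chosen with earlier results of these data known. The symbol patterns of the 5 gene classes were corrected after results had been seen, because they took in unrelated genes and missed the Nkx genes. The transcription factor class went from 554 to 504 autosomal genes. Its counts among borders of the 50 richest, empty, densest and sparsest deserts stayed the same; the chemosensory class went from 1 to 0 among the borders of the 50 richest and from 1 to 0 among those of the 50 densest. Added after seeing the data were the densest, sparsest and empty border sets, gene-end peaks at borders, density by border class and distance, runs of peaks, and the lncRNA promoter, CG and antibody segment counts.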

Additional observations from a re-analysis of the deposited data

Results flagged for a closer look

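Outside the autosomes, the same distance rule gave 94 gene desert peaks of 1605 on chromosome X (5.86%, exact 95% interval 4.76 to 7.12%), with a median width of 492 bp. They stand apart only in being left out of the autosomal counts. On chromosome Y it gave 0 of 16 peaks.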

How the results depend on the processing

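With a limit of 100 kb in place of 200 kb there were 10428 gene desert peaks (12.2% of autosomal peaks) in 1101 deserts, with a density ratio of 0.369, a median width of 480 bp, 23.3% of peaks with a transcription factor border and a density in such deserts 1.92 times that in others. With 500 kb these values were 1619 peaks, 1.89%, 208 deserts, 0.211, 428 bp, 17.7% and 2.31 times. Without predicted genes the share was 7.31%, the density ratio 0.307 and the share with a transcription factor border 25.9%. Counting genes of every kind, an alternative chosen after seeing the data, left 362 peaks. Gene deserts were sparser than the rest, and transcription factor deserts denser than others (2.17 times as reported), with both other limits, measuring from the peak edge, without narrow peaks and without predicted genes. With the gene classes as first written, the share with a transcription factor border was 24.9% and the ratio 2.16. Measuring from the peak edge, leaving out peaks under 20 bp and leaving out chromosome ends moved no count by over 1.5 times. No paired analysis was possible because both libraries share 1 peak list, and neither library could be left out. Without depth, a missing peak cannot be told apart from one too weakly covered to be called.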
